A study of Saccharomyces cerevisiae with 4 samples.

Results

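The subtelomeric belt is the stretch of each yeast chromosome arm that lies 10 to 30 kb from the chromosome end. On the 16 nuclear chromosomes it makes 640 windows of 1 kb, out of 12058 such windows tiled inward from all 32 ends. The windows were placed by position alone, and each was scored for the bases inside peaks and for the summits in 3 peak lists of budding yeast made by ChIP-seq, in which DNA that comes down with an immunoprecipitated (IP) protein is sequenced. The lists came from a strain with HA-tagged Sir2 (LRY1926, 159 peaks), from a strain with HA-tagged Hst1 (LRY0558, 692 peaks) and from a mock IP with the same anti-HA antibody in their untagged parental strain (LRY1009, 3 peaks). All 3 strains were harvested in early log phase from glucose-containing rich medium (YPD) at 30 °C and fixed with dimethyl adipimidate and then formaldehyde. Each group is 1 peak list with no replicate, so no difference below was tested, and every comparison describes these lists.

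Sir2 and Hst1 are related NAD+-dependent histone deacetylases. Sir2 acts in the SIR complex, which is recruited at telomeres and at the silencers of the silent mating loci, HML and HMR, and spreads along chromatin as it deacetylates histones. How far it spreads is limited by competing histone marks and by barrier elements, such as a tRNA gene beside HMR. Hst1 does not spread in this way: it is brought to promoters by the DNA-binding repressor Sum1, with Rfm1 as the link. The genes beyond the telomere-associated repeats include families that take up or use unusual nutrients (hexose transporters, isomaltases, thiamine, phosphate and iron genes) or build the cell surface (seripauperins, flocculins). The question put to the belt was where Sir2 stops and where Hst1 sites stand.

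Sir2 coverage fell away across the belt, while Hst1 sites continued through it. Sir2 peaks touched 39 of the 640 belt windows (6.09%, 95% CI 4.37 to 8.24), against 3.02% of all windows. The share was 63.1% at 0 to 10 kb from the end, 0.938% at 30 to 50 kb and 1.12% beyond 50 kb. Hst1 peaks touched 78 belt windows (12.2%, CI 9.75 to 15.0), against 8.35% of all windows, with 25.6% at 0 to 10 kb, 8.44% at 30 to 50 kb and 7.58% beyond 50 kb. The mock IP had no peak in the belt, and its peaks touched 0.0498% of all windows. The intervals are exact (Clopper-Pearson) and cover counting error only. A long peak fills several neighbouring windows, so windows are not independent and the intervals are too narrow.

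**Figure D1:**
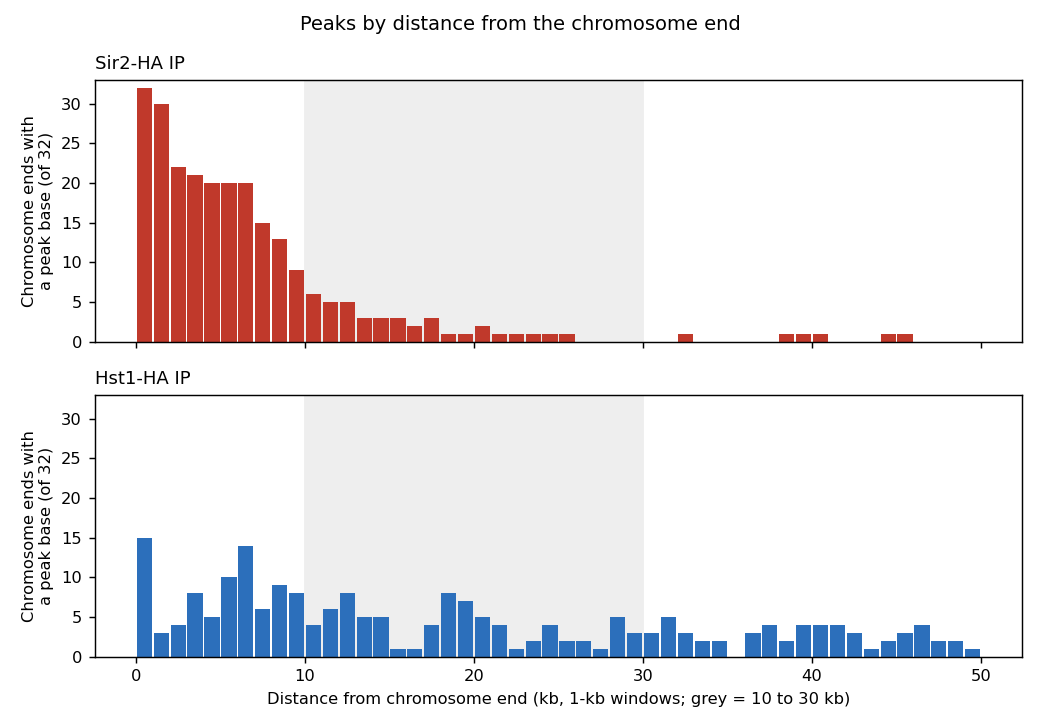
Number of the 32 chromosome ends with at least 1 base of a Sir2 peak (upper panel) or of an Hst1 peak (lower panel) in each 1-kb window, by distance from the end in kb, with the belt in grey. Sir2 is found on 32 ends in the first kb, 6 at 10 to 11 kb and 0 from 26 to 30 kb, while Hst1 lies between 1 and 8 ends in every belt window.

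Within the belt the Sir2 signal was concentrated near its telomeric side. Of the 26.1 kb of belt sequence inside Sir2 peaks, 16.4 kb lay at 10 to 15 kb, 4.44 kb at 15 to 20 kb, 4.85 kb at 20 to 25 kb and 0.367 kb at 25 to 30 kb. The number of Sir2 summits in these steps was 5, 5, 2 and 0. Hst1 peaks covered 29.1 kb of the belt, divided over the same steps as 11.7, 6.31, 6.34 and 4.74 kb, with 17, 13, 11 and 9 summits. The next steps inward, 30 to 35 and 35 to 40 kb, held 10 and 8 Hst1 summits, close to the 9 of the last step within the belt. Per 100 kb there were 7.81 Hst1 summits in the belt, against 20 at 0 to 10 kb, 5.47 at 30 to 50 kb and 5.18 beyond. Sir2 had 1.88 summits per 100 kb in the belt, against 19.7, 0.625 and 0.765 in those zones.

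The inner limit of Sir2 was taken on each end as the place where its outermost domain stopped, with peaks joined across gaps of up to 1 kb. The median over 32 ends was 6.67 kb (interquartile range 1.93 to 9.01). The domain stopped within 5 kb of the end on 13 ends and between 5 and 10 kb on 15 ends. The shortest was 0.219 kb on the right end of I. It reached the belt on 4 ends: to 17.3 kb on the left end of III, 17.0 kb on the right end of XII, 14.2 kb on the left end of XII and 10.5 kb on the left end of IX. With no gap bridged the median limit was 2.43 kb. On all 16 right arms the end itself was set by the last base of a Sir2 peak, so a distance there is measured from the last position with Sir2 signal.

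**Figure D2:**
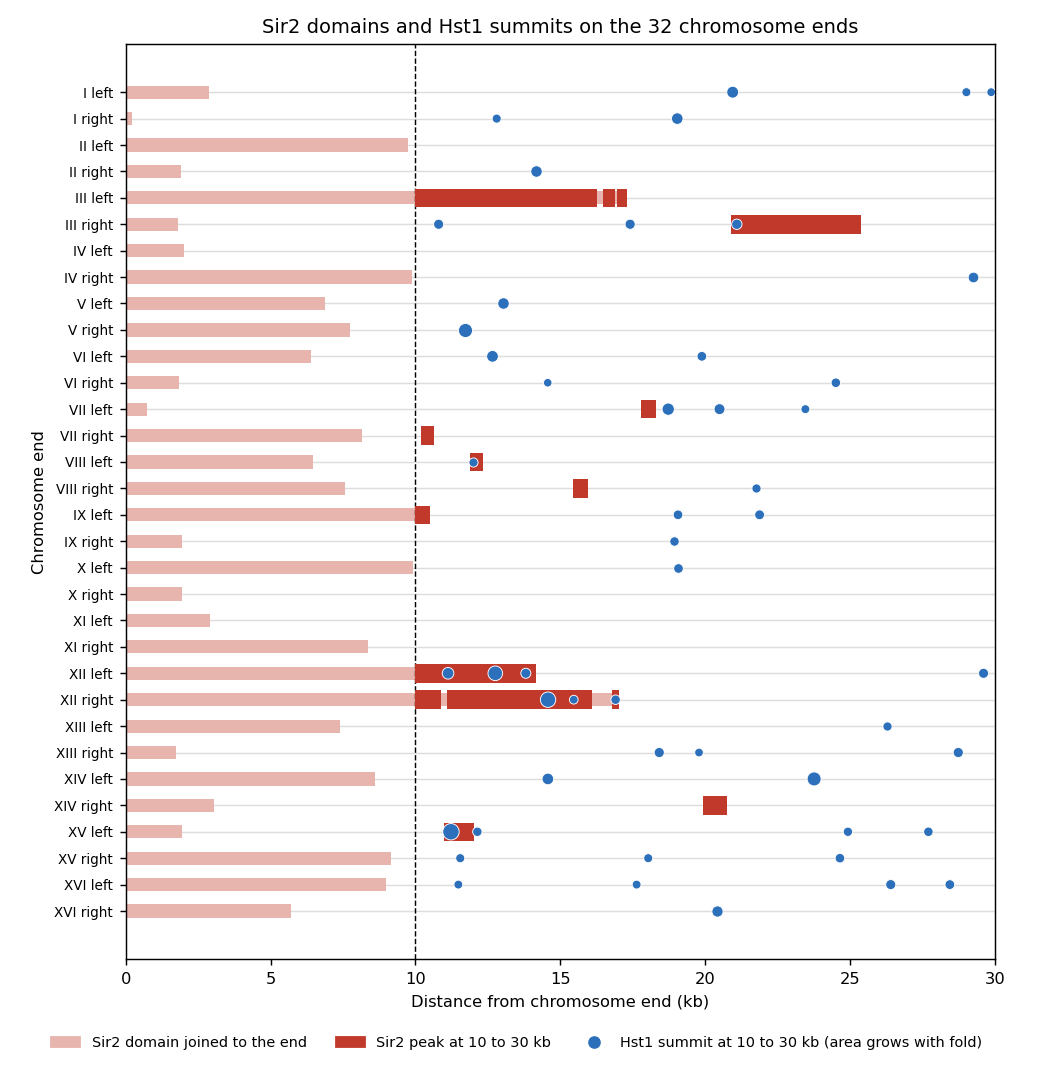
The outer 30 kb of the 32 chromosome ends, drawn from the end at the left, with the Sir2 domain joined to the end in pale red, Sir2 peaks inside the belt in dark red and Hst1 summits inside the belt as blue dots whose area grows with the authors' fold. Sir2 domains cross 10 kb on 4 ends, and 16 ends have Hst1 summits and no Sir2 peak in the belt.

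The belt's Sir2 sequence lay mostly on chromosomes III and XII. Their 4 ends held 21.7 of the 26.1 kb (83.3%), and the other 28 ends held 4.36 kb. In all, 11 of 32 ends had any Sir2 base in the belt and 21 had none. The 15 Sir2 peaks that touched the belt, of which 12 had their summit there, split into 8 that were part of a domain joined to the end and 7 detached ones, each on a different end. The joined peaks held 17.8 kb of belt sequence and the detached ones 8.33 kb.

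Positions are sacCer3 coordinates, and the fold is the authors' own value per peak, the enrichment at the summit over the caller's local background, which is compared here only within a list. On the left end of III, Sir2 ran without a break from base 1 to 16274 (fold 4.01 at its summit close to the end). This peak wholly covered VBA3, a gene of the vacuolar amino acid permease family, the uncharacterised gene YCL068C, and HMLALPHA2 and HMLALPHA1, the silent copies of the alpha mating-type genes at 12.4 to 13.8 kb. It stopped inside CHA1, which encodes a serine and threonine deaminase. A second peak inside CHA1 (III, 16482 to 16888, fold 2.65) and another inward of it (III, 16959 to 17290, fold 2.93) carried the domain on to 17290, the first base of VAC17, a gene for vacuole inheritance. Hst1 had no peak in the belt of this end.

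On the right end of III, the outermost Sir2 domain stopped at 1.80 kb and Sir2 returned at HMR. That detached peak (III, 291254 to 295719, 20.9 to 25.4 kb from the end) had a fold of 13.7, the highest in the belt and rank 5 of 159. It wholly covered HMRA2 and HMRA1, the silent copies of the a mating-type genes, and lay farther from its chromosome end than any other Sir2 peak in the belt. The tRNA gene YNCC0014W (III, 295484 to 295556) lay inside the peak, which stopped 163 bp beyond it. An Hst1 peak (III, 295360 to 296003, fold 2.75) had its summit inside that tRNA gene and shared 360 bp with the Sir2 peak. A further pair of Hst1 peaks stood closer to the telomere on this end, near GIT1, a glycerophosphoinositol permease gene (III, 298999 to 299370, fold 2.63), and upstream of YCR102C (III, 305630 to 305981, fold 2.57).

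Chromosome XII had Sir2 across both sides of the telomere-proximal limit of the belt. On the left end, 1 peak ran from base 1 to 14172, with its summit at 11.2 kb and a fold of 5.24, and covered the whole of PAU18. On the right end a peak of 4979 bp (XII, 1062101 to 1067079, fold 6.89) covered PAU4 and YLR462W, and a short one (XII, 1061153 to 1061377, fold 1.95, rank 140) ended the domain upstream of YLR460C. The peak nearest to this end (XII, 1067297 to 1078177) reached 10.9 kb and took in most of YRF1-4, a helicase gene of the telomere-associated Y' repeat. Of the 11 Hst1 summits discussed below that belong to peaks overlapping Sir2, 6 were on these ends. On the left end of IX, the peak that carried the domain to 10.5 kb (IX, 2797 to 10501, fold 10.3) had its summit outside the belt, at 7.59 kb.

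The other detached Sir2 peaks were short, from 452 to 1055 bp. On the right end of VII, a peak at 10.4 kb (VII, 1080295 to 1080763, fold 3.89) coincided with PAU12. On the left end of VIII, a peak at 12.1 kb (VIII, 11890 to 12341, fold 4.66) coincided with PAU13. A peak at 11.2 kb on the left end of XV (XV, 10979 to 12033, fold 6.08) took in PAU20. On the right end of XIV, a peak at 20.1 kb (XIV, 763579 to 764398, fold 5.56) lay in the gap between BSC5 and PDR18, an ABC transporter gene. One on the left end of VII at 18.0 kb (VII, 17775 to 18317, fold 2.84) lay between genes next to ADH4, an alcohol dehydrogenase gene. One on the right end of VIII (VIII, 546689 to 547209, fold 2.43) lay inside YHR214C-B, a Ty1 retrotransposon gene, whose copies elsewhere in the genome share its sequence.

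All 5 seripauperin genes that start in the belt were wholly inside a Sir2 peak. PAU genes encode small cell wall proteins made under cold or low oxygen. The covered members were PAU4, PAU12, PAU13, PAU18 and PAU20, between 10.6 and 15.3 kb from their ends, and their peaks had folds of 6.89, 3.89, 4.66, 5.24 and 6.08. Among belt genes of any kind, 11 of 264 (4.17%) were wholly inside a Sir2 peak, against 0.983% of all genes, and the remaining 6 were the 4 silent mating genes, YCL068C and YLR462W. Any base of a Sir2 peak lay on 16 of the 264 (6.06%), against 2.5% of all genes. Of the 14 PAU genes within 10 kb of an end, 10 were wholly covered, and of the 5 beyond 30 kb none was. The PAU genes are near-identical, so reads of 50 cycles may be placed at the wrong copy. A Sir2 summit lay in the 500 bp upstream of 4 of the 264 belt genes (1.52%), against 0.467% of all genes: CHA1, VAC17, YLR460C and PXP3, a peroxisomal protein gene whose Sir2 peak is the one over PAU13. With any part of a peak counted, the upstream 500 bp of 17 belt genes (6.44%) held Sir2, against 1.92% of all genes.

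Hst1 had 50 summits in the belt (7.23% of its list), on 24 of 32 ends, with at most 4 on an end. Both proteins were in the belt of 8 ends, Hst1 alone on 16, Sir2 alone on 3 (the left end of III and the right ends of VII and XIV) and neither on 5 (the left ends of II, IV and XI and the right ends of X and XI). Sir2 and Hst1 shared 19 windows (2.97%), against 1.02% of all windows. These made up 48.7% of the belt's Sir2 windows and 24.4% of its Hst1 windows. At 0 to 10 kb, 37.1% of Sir2 windows and 91.5% of Hst1 windows were shared, and beyond 50 kb 20.5% and 3.03%.

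**Figure D3:**
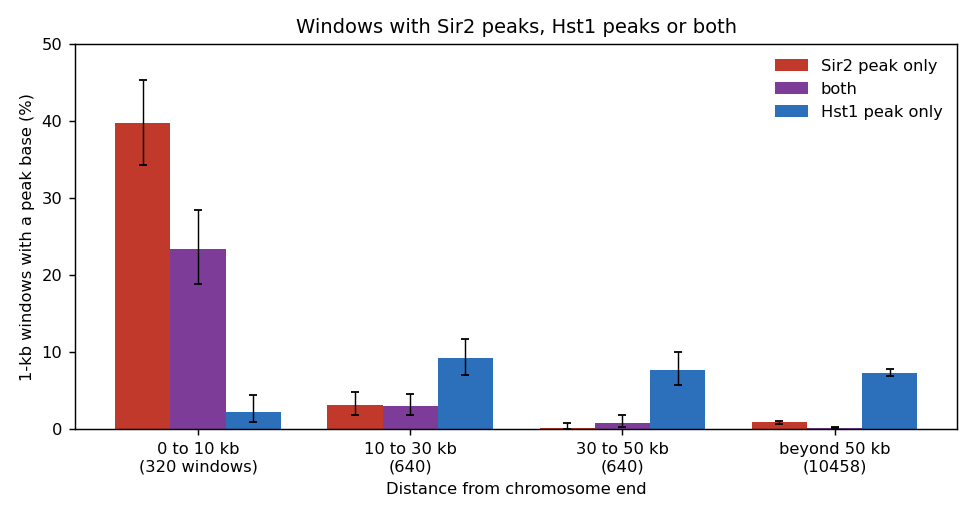
Share of 1-kb windows (%) that hold bases of a Sir2 peak only, of both proteins or of an Hst1 peak only, by distance from the chromosome end, with exact 95% intervals for counting error. In the belt 9.22% of windows hold Hst1 only, against 2.19% at 0 to 10 kb, while Sir2-only windows make up 3.13% in the belt and 39.7% at 0 to 10 kb.

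Most belt Hst1 sites stood clear of Sir2. Of the 50 summits, 9 lay inside a Sir2 peak, 2 within 1 kb of one, 6 at 1 to 5 kb and 33 (66.0%) farther than 5 kb. The median distance to the nearest Sir2 peak was 9.02 kb. Counted by peaks, 11 of the 50 (22.0%) shared at least 1 bp with a Sir2 peak, against 11.4% of all Hst1 peaks, 92.2% of those at 0 to 10 kb and 5.71% of those at 30 to 50 kb. From the other side, 7 of the 12 Sir2 peaks with a belt summit met an Hst1 peak (58.3%), against 28.9% of all Sir2 peaks. Of the 15 that touched the belt 10 did, but some of these, such as the long peak on the left end of III, met Hst1 only outside it. On 22 of the 24 ends with a belt Hst1 summit, the first of these lay inward of the limit of the outermost Sir2 domain. The median offset over the 24 ends was 9.22 kb. The exceptions were both ends of XII, where the first belt summit lay inside the Sir2 domain (summit minus limit, -3.05 kb on the left and -2.45 kb on the right). Only 4 of the 32 Sir2 domains reached the belt, so on most ends the belt's own limit at 10 kb fixed this order. Closer to the end, at 0 to 10 kb, Hst1 had 64 summits, of which 58 lay inside a Sir2 peak.

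In the belt, Sir2 and Hst1 summits lay 158 bp or less apart inside PAU13 and at sites between genes. Those sites were beside PAU20, upstream of YLR460C in the gap it shares with PAU4, and in the gap downstream of PAU18, 1877 bp from that gene. Beside PAU20 the Hst1 peak (XV, 10794 to 11846, fold 8.29, rank 4 of 692) had its summit 8 bp from that of Sir2, downstream of the gene, and a second Hst1 peak lay on its upstream side (XV, 11947 to 12502, fold 2.13). At PAU4 the strongest of 3 Hst1 peaks (XII, 1063022 to 1065679, fold 7.17) also lay on the downstream side. Weaker ones lay upstream of PAU4 (fold 1.71) and of YLR460C (fold 2.15), the last with its summit 4 bp from that of the short Sir2 peak. The Sir2 peak that covered PAU4 had its summit 1481 bp from the nearest Hst1 summit. PAU18 again had the stronger Hst1 peak downstream (XII, 12316 to 13220, fold 6.38) and the weaker upstream (XII, 13557 to 14044, fold 2.55), and another (XII, 10711 to 11485, fold 3.70) had its summit 79 bp from that of Sir2. At PAU13 an Hst1 peak of fold 1.96 had its summit inside the gene, 158 bp from the Sir2 summit. PAU12 had no Hst1 peak over the gene or in the 500 bp upstream of it.

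On the left end of VII the proteins stood side by side rather than together. The Sir2 peak and the first of 3 Hst1 peaks (VII, 18298 to 18901, fold 4.26) shared 20 bp, with summits 766 bp apart, in the 4670 bp between ADH4 and ZRT1, the high-affinity zinc transporter gene. A second Hst1 peak in the same gap (VII, 20299 to 20896, fold 3.18) had its summit 481 bp upstream of ZRT1. The remaining one, upstream of HXK2 (fold 1.81), lay 5143 bp from the Sir2 peak.

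**Figure D4:**
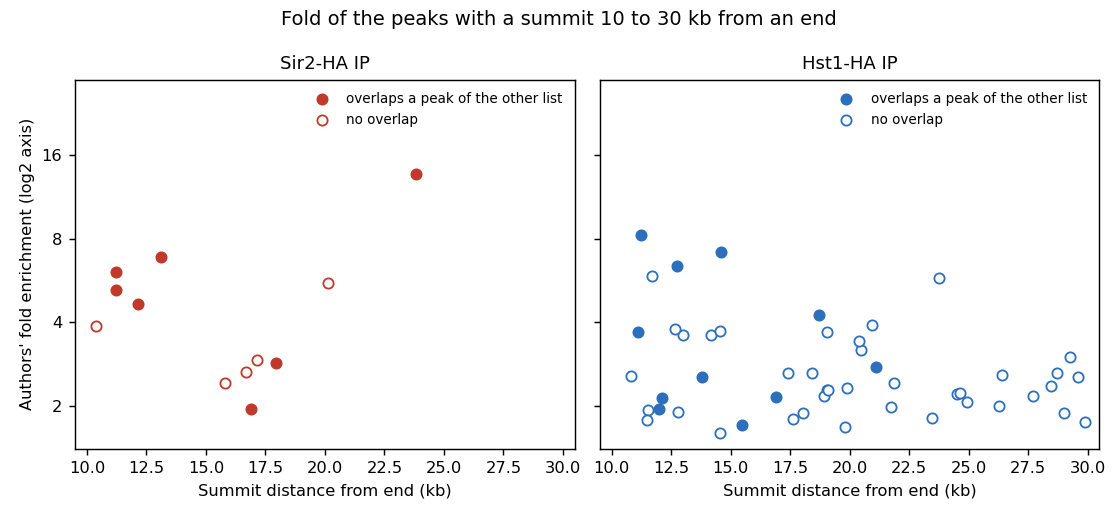
The authors' fold at the summit (log2 axis) against distance from the chromosome end in kb for the 12 Sir2 peaks (left) and 50 Hst1 peaks (right) with a belt summit, filled where the peak shares at least 1 bp with a peak of the other list. Of the 6 Hst1 peaks with a fold of at least 4, 4 overlap Sir2 (by only 20 bp on the left end of VII), and of the 44 others 7 do. Without a cutoff, 22.0% of the 50 overlap Sir2, against 11.4% of all Hst1 peaks. No share at the cutoff of 4 is given for the whole list, so no conclusion is drawn from this split. Folds are to be compared within a panel only.

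The fold of the belt's Hst1 peaks was like that of the whole list. Their median was 2.38 (interquartile range 1.99 to 3.55, range 1.60 to 8.29), against 2.06 at 0 to 10 kb, 2.29 at 30 to 50 kb and 2.22 beyond 50 kb. The 11 that overlapped Sir2 had a median of 2.75 and the 39 others 2.32. The 12 Sir2 peaks with a belt summit had a median fold of 4.28 (range 1.95 to 13.7), against 5.53 at 0 to 10 kb and 2.15 in the 84 peaks beyond 30 kb. In both lists the belt median lay inside the interquartile range of the whole list, which is 1.88 to 3.15 for Hst1 and 2.11 to 5.13 for Sir2.

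Belt Hst1 summits lay mostly between genes. Of 50, 20 were between divergent genes (40.0%, against 34.1% of the whole list), 22 between genes in tandem and 5 between convergent genes. These classes use protein-coding genes only, so the summit inside the tRNA gene YNCC0014W is counted as convergent. The divergent share was 14.1% at 0 to 10 kb and 14.3% at 30 to 50 kb. The other 3 belt summits lay inside a protein-coding gene (6.0%). That share was 16.9% in the whole list, 32.8% at 0 to 10 kb and 17.1% at 30 to 50 kb. Promoter summits, those in the 500 bp upstream of a gene and outside all annotated genes, made up 24 (48.0%, CI 33.7 to 62.6), against 49.9% of the whole list and 12.5% at 0 to 10 kb. Such promoter sequence made up 15.4% of the belt. At 30 to 50 kb, 65.7% of the Hst1 summits were promoter summits. The median distance of a summit to the nearest gene start was 488.5 bp, and 11 summits were over 1000 bp from any gene start. Genes were sparse here, as they were at 0 to 10 kb: annotated genes covered 54.2% of the belt and 50.8% of that zone, against 74.7% at 30 to 50 kb and 73.5% of all windows. Counted by genes, 26 of the 264 that start in the belt had an Hst1 summit in the 500 bp upstream (9.85%, CI 6.53 to 14.1), against 8.41% of all genes, a share near that background.

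Away from Sir2, the strongest belt Hst1 peak stood between YER186C and YER187W on the right end of V (V, 564643 to 565843, fold 5.89), over 1 kb from either gene start. Next was the divergent promoter of EGT2, a cell separation gene, and MDJ2, a mitochondrial chaperone gene (XIV, 23251 to 24326, fold 5.78). A peak by YAL064W on the left end of I (I, 20628 to 21166) had a fold of 3.91. One beyond the 3' end of FLO1, a flocculin gene, on the right end of I (I, 211017 to 211402) had a fold of 3.69. The peak by RMD6, a gene named for meiotic nuclear division (V, 12702 to 13490), had a fold of 3.60, and so did the peak upstream of the phosphate transporter gene PHO89 (II, 798733 to 799191). A 1934 bp peak (XVI, 927375 to 929308, fold 3.41) had its summit between OPT2, an oligopeptide transporter gene, and YPR195C, and covered the whole of YPR195C. The peak between HSP31 and FIT1, a cell wall protein gene of iron uptake (IV, 1502360 to 1503254), had a fold of 3.0. Those upstream of the translation initiation factor gene NIP1 (XIII, 895567 to 895998) and of YMR316C-A, next to DIA1 (XIII, 905875 to 906267) had folds of 2.62 and 2.63.

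Several belt sites were repeated at copies of the same gene block, a grouping chosen after the values were seen. Upstream of THI5 and THI12, copies of a thiamine precursor synthesis gene that each stand beside an SNZ vitamin B6 gene, Hst1 had peaks of fold 3.80 (VI, 12470 to 13173) and 3.71 (XIV, 14383 to 14983), with summits 268 and 260 bp from the gene starts. For THI11 and THI13, also in the belt, the nearest Hst1 summit was 7022 and 7033 bp away. Upstream of the isomaltase genes IMA3, IMA4 and IMA2, the summits lay 511, 542 and 635 bp from the gene starts, with folds of 2.28, 2.28 and 2.07. At IMA4 and IMA2 the same peak stood upstream of a hexose transporter gene, HXT9 or HXT11. The nearest Hst1 summit was 5436 bp from the start of IMA5 and 15487 bp from that of IMA1. Between HSP33 and ERR1, and between their copies HSP32 and ERR2, Hst1 had peaks of fold 1.93 (XV, 1079496 to 1079830) and 1.78 (XVI, 11367 to 11575). For a further copy, SNO4 and ERR3 on the right end of XIII and closer to the end than the belt, the nearest Hst1 summit was 13063 and 14072 bp from the gene starts. HSP genes of this family encode chaperones and ERR genes are related to enolase. The copies of a block share sequence, and a read from 1 copy may be counted at another.

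The gene lists, 19 families and pathways that are mostly subtelomeric, gave 68 genes with a start in the belt. Of these, 11 had an Hst1 summit upstream (16.2%), against 9.85% of all genes that start in the belt and 8.41% of all genes. Among the 196 belt genes outside the lists, 15 had one. The lists were chosen with earlier results of these data known, so no conclusion is drawn from the difference between these shares. None of the 68 had a Sir2 summit upstream, against 1.52% of all genes that start in the belt and 0.467% of all genes. Shares this low do not set the 68 apart. Sir2 was not absent from them: 9 of the 68, the 4 silent mating genes and the 5 PAU genes, were wholly inside a Sir2 peak. That share was 4.17% among all genes that start in the belt and 0.983% among all genes. The counts of single lists are small and are read against the same shares. Of PAU genes, 3 of 5 were bound by Hst1 (PAU18, PAU4 and PAU20). Of thiamine and pyridoxine genes 2 of 8 were (THI5 and THI12). Of hexose transporter genes 2 of 7 were (HXT9 and HXT11), with no call at HXT8, HXT13, HXT15, HXT16 or HXT17. The polyol list had 0 of 5, which were DSF1 and the last 4 of these. Of phosphate genes 2 of 3 were: PHO89 and PHO84 (fold 2.00, with its summit also inside the annotated gene YML122C). BNA6, an enzyme of NAD+ synthesis and the only gene of its list in the belt, shared a peak with RMD8 (VI, 245130 to 245754, fold 2.20). FDH1, the formate dehydrogenase gene, had a fold of 1.89, as 1 of 2 assorted subtelomeric genes, the other being AQY3.

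The remaining lists had no Hst1 summit upstream of a belt gene. They held 10 maltose and isomaltose genes, 7 iron and siderophore genes, 6 sulfonate and cysteine genes, 5 allantoin and urea genes, 4 silent mating genes, 3 flocculin genes, 3 AAD dehydrogenase genes, and 1 each of COS, YRF1 and biotin genes. With any part of an Hst1 peak counted, 3 of the 10 maltose and isomaltose genes were reached, which were IMA2, IMA3 and IMA4. No middle sporulation gene and no DAN or TIR gene starts in the belt, whereas 24 of the 46 listed middle sporulation genes, all beyond 30 kb, had an Hst1 summit upstream, against 8.41% of all genes. The other 15 bound genes of the belt belonged to no list. They include ZRT1, LYS1 of lysine synthesis (fold 2.16), the photolyase gene PHR1 (fold 2.23) and HXK2 (fold 1.81). HXK2 encodes the main hexokinase of glucose-grown cells. Its relative HXK1 had an Hst1 summit 546 bp upstream (VI, 255566 to 255786), with a fold of 1.60 that was the lowest in the belt.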

How the data were processed

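The files analysed were 1 peak list for each of the 3 IPs; the genomic input, the other of the 4 samples, was not analysed here. BWA, MACS2 and the build sacCer3 are named in the submitters' processing notes. Versions, cutoffs and the control of each call are not stated there or in the labels. The design text names 2 technical replicates per IP, and whether they were pooled is not given either. The deposited lists give a fold, which is a ratio of the summit pileup to the caller's local background, a −log10 p and −log10 q, and a score, per peak as the authors' caller wrote them. The deposited score equals the −log10 q multiplied by 10 and rounded down. They hold no read counts, so depth is unknown.

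Starts were converted to 1-based positions. Genes (6002 protein-coding on 16 nuclear chromosomes) came from a RefSeq table of R64, the assembly behind sacCer3, with strand read from the systematic name. The right end of a chromosome was set by the gene or peak that reached farthest. Windows were tiled from each end to the chromosome middle. Overlap means at least 1 bp. Shares carry exact Clopper-Pearson intervals (scipy 1.17.1, Python 3.11.15). No test was run, since each group has 1 list. Counting was checked on simulated lists with planted peaks. Peaks named are all Sir2 peaks that touch the belt, the strongest 20 Hst1 peaks, those that overlap Sir2, and belt members of 19 gene lists (243 symbols, 7 unmatched). The members and lists were chosen with earlier results of these data known. No genome sequence was used.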

Additional observations from a re-analysis of the deposited data

How the results depend on the processing

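Each of 11 values was recomputed under other peak thresholds, merged peaks, left ends only, other belt limits, a stricter overlap, other gaps or promoter lengths, and without chromosome III, or, chosen after the data were seen, without XII. Of 95 recomputed values, 77 stayed within 1.5 times the main value (for the promoter share, within its interval). The Sir2 windows of the belt, 39 in the main count, were 25 without III, 12 without III and XII, 25 where at least 500 bp of the window had to be covered, and 61 with the belt at 8 to 28 kb. The Sir2 sequence of 26097 bp was 14618 bp without III, 15840 bp without XII, 4361 bp without both, and 42672 bp at 8 to 28 kb. At those limits 18 ends rather than 11 held Sir2, and 30 windows rather than 19 were shared. Shared windows were 8 without XII and 7 with 500 bp required, and Hst1 windows were 20 with 500 bp required. The 50 Hst1 summits became 32 where the −log10 q had to reach 10, and 30 among the top 50% of the list by fold. With no gap bridged the median Sir2 limit was 2425 bp rather than 6668.5 bp. The Hst1 promoter share was 12% with 250 bp promoters and 64.0% with 1000 bp. In each of these the alternative's own construction removes or adds ends, windows, peaks or sequence. No paired analysis was possible because each group has 1 list. Read depth is unknown, and sequence shared between chromosome ends limits where reads can be placed.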
